A study of Mus musculus with 26 samples.

Results

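Oxidative phosphorylation genes were followed in KPC mice, which carry engineered mutations and develop pancreatic ductal adenocarcinoma. The genes were chosen by symbol among the protein-coding genes of the GENCODE mouse annotation: Ndufa, Ndufb, Ndufc, Ndufs and Ndufv, Sdha to Sdhd, Uqcr, Cox4 to Cox8 and Atp5 from the nuclear genome, and mt-Nd, mt-Co, mt-Cytb and mt-Atp from the mitochondrial genome. The annotation held 111 such genes. Of these, 100 had values among the 16322 genes of the tumour libraries and 100 among the 14131 genes of the sorted-cell libraries. In each set 87 were nuclear and 13 mitochondrial, and all 100 passed the filter on low values. Cox6b2 had values in sorted cells only and Ndufa4l2 in tumours only. Ndufa1, Ndufb11, Cox7b, Cox4i2, Cox6a2, Cox7a1, Cox7b2, Cox8b, Cox8c and a further identifier of Atp5o were not analysed here.

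The study gave tumour-bearing mice vehicle or, for 14 days, the compound GS9820, which blocks p110δ, a catalytic subunit of phosphoinositide 3-kinase. Whole tumours gave 12 libraries, 7 from the vehicle group and 5 from the GS9820 group. Cells sorted from the spleen gave 14 libraries: 3 vehicle and 4 GS9820 libraries of polymorphonuclear cells (PMN, labelled "low") and 3 vehicle and 4 GS9820 libraries of monocytes (labelled "high"). All groups are of the KPC strain, and the labels give no alleles, no age and no day for vehicle mice. The labels do not say whether the libraries of a group came from separate animals, so p-values measure the spread between these libraries, which may be technical. Values are on the authors' deposited log2 scale, a difference of 1 being a doubling. Libraries of a set had nearly the same distribution of values, so the sequencing depth is unknown and every difference is relative to the other genes of the library.

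The respiratory chain passes electrons from NADH and succinate to oxygen and pumps protons across the inner mitochondrial membrane. Complex I (NADH dehydrogenase), complex II (succinate dehydrogenase), complex III (cytochrome bc1) and complex IV (cytochrome c oxidase) carry the electrons, and complex V (ATP synthase) makes ATP from the proton gradient. Complex II is encoded wholly in the nucleus, while the other complexes join nuclear subunits with a few proteins encoded by mitochondrial DNA. Mature neutrophils are known for few mitochondria and for reliance on glycolysis, and monocytes for a fuller use of respiration.

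By complex, the measured genes numbered 49 in complex I (7 mitochondrial, 42 nuclear), 8 in complex II, 9 in complex III (1 mitochondrial), 15 in complex IV (3 mitochondrial) and 19 in complex V (2 mitochondrial). Among the 87 nuclear genes, 73 encode subunits and 14 encode assembly factors or associated proteins. The mitochondrial genes lie between bases 2751 and 15288 of chromosome M in GRCm38. Several overlap their neighbour: mt-Atp8 and mt-Atp6 by 43 bases, mt-Nd5 and mt-Nd6, which lie on opposite strands, by 14, and mt-Nd4l and mt-Nd4 by 7. How reads over such overlaps, or over copies of mitochondrial DNA in the nuclear genome, were assigned is not given in the sources used here.

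Sorted cells were checked against markers of their labels. Ly6g, a granulocyte surface protein, ran from 9.03 to 9.996 in the 7 PMN libraries and from 4.18 to 8.39 in the 7 monocyte libraries. Ccr2, the chemokine receptor of classical monocytes, ran from 6.85 to 9.09 in PMN and from 10.54 to 11.99 in monocytes. Csf1r, the receptor of the monocyte growth factor, overlapped between the cell types, at 8.04 to 9.07 in PMN and 8.67 to 10.62 in monocytes. Neither cell type was free of the other's markers. S100a8, a further PMN marker, stood at 14.05, the top value of these libraries, in every PMN library. It did so too in monocyte vehicle libraries 1 and 2 and monocyte GS9820 libraries 1 and 3, so it could not separate these from PMN. The mean of 13 PMN markers was 12.21 to 12.55 in PMN and 8.97 to 11.11 in monocytes, with no defining PMN marker at 0 in a monocyte library, and the mean of 12 monocyte markers was 6.42 to 7.16 in PMN and 8.11 to 9.65 in monocytes.

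Promoters of the nuclear genes were searched for binding motifs of regulators known to act on respiratory genes. RefSeq promoters (build GRCm38.p6, 250 bases before to 50 bases after the start) were matched for 72 nuclear genes. The palindromic motif of nuclear respiratory factor 1 (NRF1), spelled in capitals in the sequences of this paragraph, was in 7 of 72 of these windows (9.72%), against 225 of 9465 genes kept in sorted cells (2.38%) and 1.07% of all 27025 genes with such a window. The ETS motif CCGGAAG, on either strand, was in 21 of 72 (29.2%) against 1963 of 9465 (20.7%) and 9.93% of all. Atp5g2 and Atp5k, subunits of ATP synthase, Cox6a1, a subunit of cytochrome c oxidase, and Ndufa11, an accessory subunit of complex I, are shown because each holds the NRF1 motif before its start and was higher in monocytes than in PMN of vehicle mice. The 250 bases before the start are given 5′ to 3′ on the gene's strand.
Atp5g2, chr15:102671048-102671297, minus strand: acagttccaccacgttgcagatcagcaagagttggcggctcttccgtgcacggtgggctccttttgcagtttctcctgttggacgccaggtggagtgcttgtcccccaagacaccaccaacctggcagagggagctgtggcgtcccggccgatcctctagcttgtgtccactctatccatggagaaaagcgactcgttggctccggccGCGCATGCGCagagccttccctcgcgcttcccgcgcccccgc
Atp5k, chr5:108434400-108434649, minus strand: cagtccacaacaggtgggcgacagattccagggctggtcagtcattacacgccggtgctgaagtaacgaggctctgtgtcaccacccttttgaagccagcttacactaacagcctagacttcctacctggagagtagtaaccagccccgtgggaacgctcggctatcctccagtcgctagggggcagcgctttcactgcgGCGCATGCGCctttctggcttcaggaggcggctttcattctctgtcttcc
Cox6a1, chr5:115348959-115349208, minus strand: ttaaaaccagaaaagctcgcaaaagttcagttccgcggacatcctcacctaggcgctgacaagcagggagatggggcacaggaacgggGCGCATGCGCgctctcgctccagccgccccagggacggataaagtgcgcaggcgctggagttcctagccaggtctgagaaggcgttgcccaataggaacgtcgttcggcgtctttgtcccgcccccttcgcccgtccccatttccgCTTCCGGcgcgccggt
Ndufa11, chr17:56717512-56717761, plus strand: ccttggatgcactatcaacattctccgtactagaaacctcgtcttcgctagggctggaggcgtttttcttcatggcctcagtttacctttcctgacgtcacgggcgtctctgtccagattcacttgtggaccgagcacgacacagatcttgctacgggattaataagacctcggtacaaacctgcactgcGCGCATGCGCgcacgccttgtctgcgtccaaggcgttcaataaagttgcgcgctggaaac
Capitals mark the NRF1 motif in all 4 sequences and, in Cox6a1, also the ETS motif on the opposite strand, read here as CTTCCGG. The NRF1 motif lies 42 to 33 bases before the start in Atp5g2, 50 to 41 in Atp5k, 162 to 153 in Cox6a1 and 60 to 51 in Ndufa11, and the ETS motif of Cox6a1 lies 16 to 10 bases before it. Among the matched genes, 6 of 58 that were higher in monocytes held the NRF1 motif, and 1 of 14 that were not. For the ETS motif these counts were 14 of 58 and 7 of 14. A match describes letters in a window and is not a measured binding site.

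Monocytes were first compared with PMN in vehicle mice, 3 libraries against 3. The spread in this test was pooled over all 14 sorted-cell libraries, those of GS9820 mice included. Genes of all 5 complexes and of both genomes were higher in monocytes: 81 of 100 passed the threshold (limma, Benjamini-Hochberg adjusted p under 0.05 over all 13968 genes tested) as higher and 1 as lower. Among all genes tested, 60.1% passed, 32.8% higher and 27.2% lower. The median difference was 0.92 over the oxidative phosphorylation genes and 0.07 over all genes. In 85 of the 100 the lowest monocyte library lay above the highest PMN library, which held for 32.4% of all genes. When the vehicle libraries were fitted alone, the named genes Sdha, Sdhb, mt-Co3, mt-Atp6 and Cox7a2l lost their calls (limma, adjusted p from 0.0536 to 0.0919). In these bulk values fewer cells of a type and less RNA per cell cannot be told apart.

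**Figure D1:**
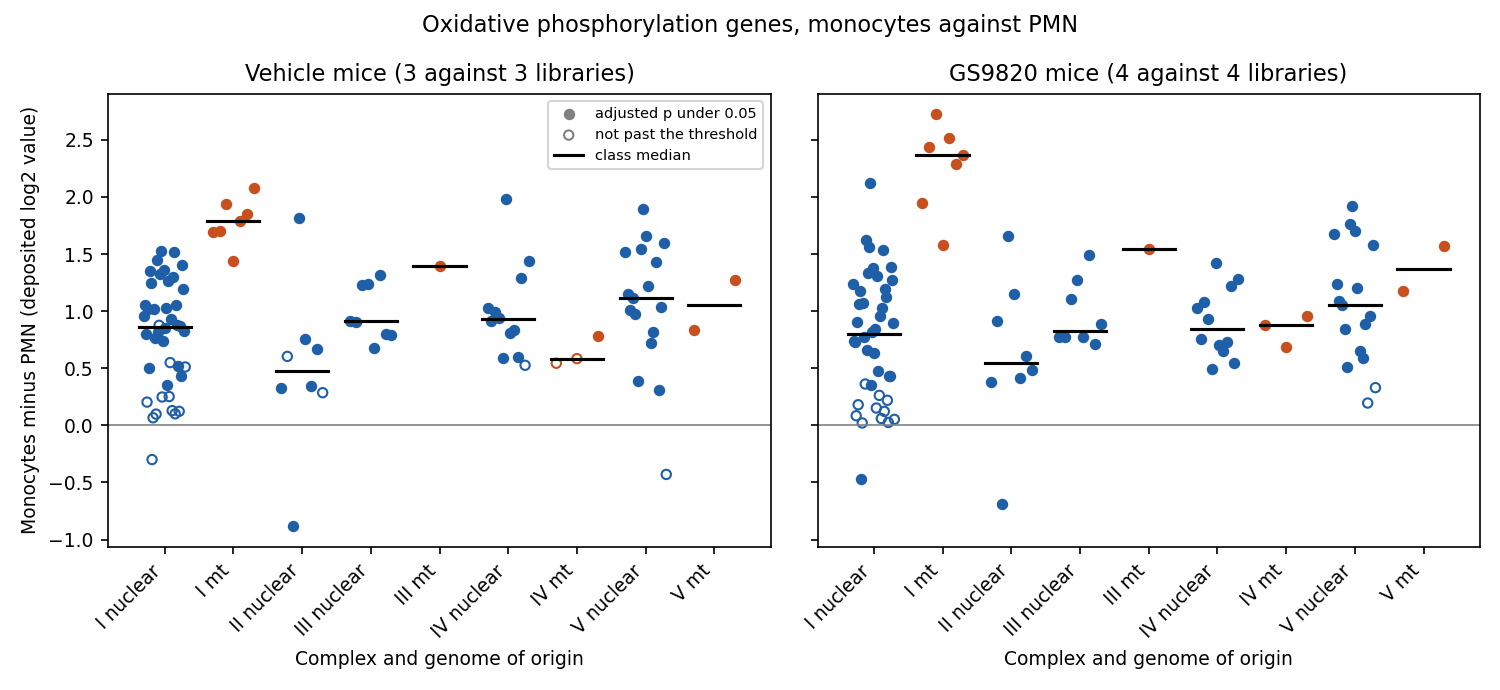
Difference between monocytes and PMN (deposited log2 value) of each oxidative phosphorylation gene, by complex and genome of origin, in vehicle mice (left) and GS9820 mice (right). Filled points passed the limma threshold, open points did not, and bars are class medians. Mitochondrially encoded complex I genes have the highest class median in both panels, and most nuclear genes lie above 0.

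The 13 mitochondrial genes had a median difference of 1.44, and the 87 nuclear genes one of 0.88. In vehicle mice 11 of 13 mitochondrial genes and 70 of 87 nuclear genes were higher, and 1 nuclear gene was lower. Averaged over the 13 mitochondrial genes, the level was 10.72 ± 0.35 in PMN (SD, n = 3 libraries) and 12.10 ± 0.37 in monocytes (SD, n = 3). Over the nuclear genes it was 5.16 ± 0.11 and 6.02 ± 0.11. The libraries of the cell types did not overlap in either mean. How far the mitochondrial mean lay above the nuclear mean did overlap between the cell types: 5.81, 5.63 and 5.24 in the PMN libraries against 5.98, 5.67 and 6.58 in the monocyte libraries. The 13 genes made up 1.62% to 2.83% of the unlogged sum of values in the PMN libraries of all mice and 3.95% to 6.45% in the monocyte libraries.

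**Figure D2:**
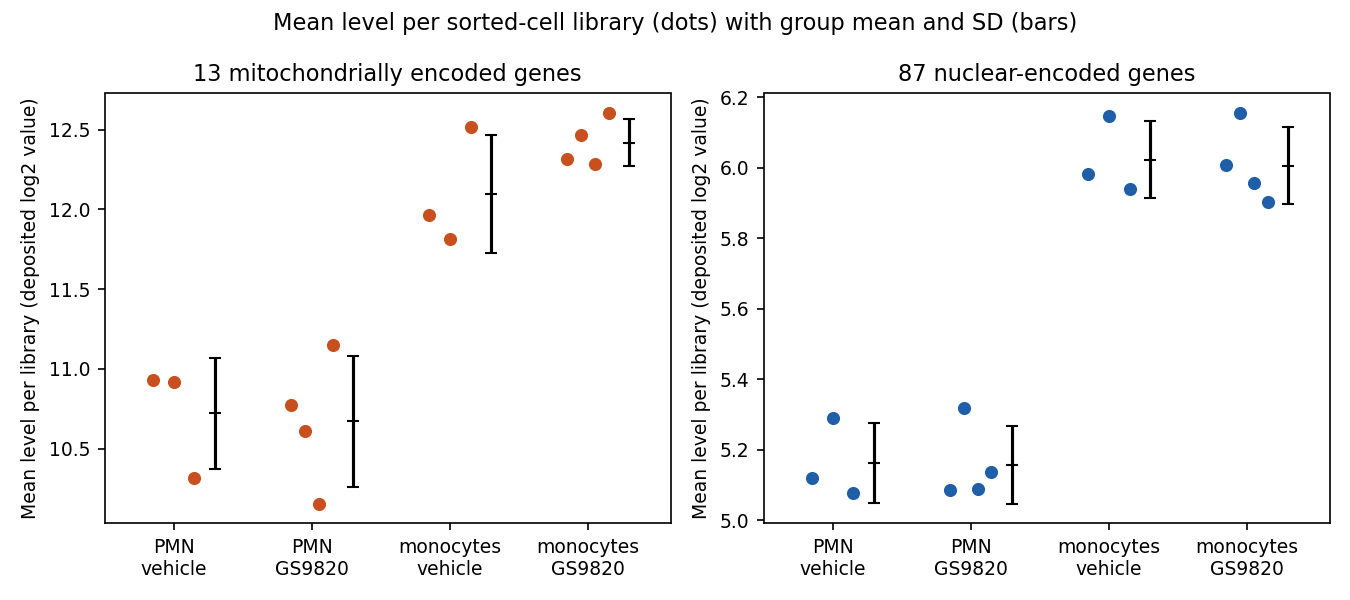
Mean deposited log2 value of the 13 mitochondrial genes (left) and the 87 nuclear genes (right) in each sorted-cell library, with the mean and SD of each group (n = 3 vehicle, 4 GS9820). Axes do not start at 0. All monocyte libraries lie above all PMN libraries in both panels, and the vehicle and GS9820 libraries of each cell type overlap.

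Complex I, the largest of the complexes, showed its widest differences in its mitochondrially encoded core subunits. All 7 were higher in monocytes, with differences of 1.44 to 2.08. mt-Nd6, a membrane subunit encoded on the opposite strand from the others, had 9.57, 9.41 and 8.90 in the PMN libraries and 11.34, 10.99 and 11.79 in the monocyte libraries. Each monocyte library lay above each PMN library, and the difference was 2.08 ± 0.27 (SE), a 4.23-fold higher level (limma, adjusted p = 3.33e-05). mt-Nd3, a small membrane subunit, had 8.10, 8.34 and 7.55 in PMN and 9.59, 9.48 and 10.74 in monocytes, a difference of 1.94 ± 0.36 (adjusted p = 0.000578). mt-Nd5, mt-Nd4l, mt-Nd2 and mt-Nd1, further parts of the membrane arm, differed by 1.85, 1.79, 1.71 and 1.69, and mt-Nd4 by 1.44.

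Of the 42 nuclear genes of complex I, 30 were higher in monocytes and none lower, with a median difference of 0.86. Core subunits passed in 6 of 7 cases, other subunits in 19 of 27 and assembly factors in 5 of 8, and the 3 groups had medians of 0.88, 0.85 and 0.85. Ndufv1, which binds NADH, had means of 5.55 in PMN and 6.75 in monocytes, a difference of 1.19 ± 0.13 (adjusted p = 9.91e-06). Ndufb10, an accessory membrane subunit, had the smallest adjusted p of the nuclear genes (7.83e-07), with PMN libraries at 5.92, 5.80 and 5.99 and monocyte libraries at 7.28, 7.15 and 7.37. Ndufc2 (1.52) and Ndufs8 (1.40), the latter a carrier of iron-sulphur clusters, were higher as well. The assembly factors Ndufaf6 and Ndufaf2 were higher by 1.52 and 1.45 at low levels, with monocyte means of 1.08 and 1.14.

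Ndufs1, the largest core subunit and itself a carrier of iron-sulphur clusters, did not pass. Its values were 5.82, 5.84 and 5.93 in PMN and 5.92, 6.07 and 5.90 in monocytes, which overlap, with a difference of 0.10 ± 0.11 (adjusted p = 0.431). Ndufa8 (0.07), Ndufaf1 (0.10), Ndufs5 (0.12), Ndufb9 (0.13) and Ndufa13 (0.20) were also past the threshold in neither vehicle nor GS9820 mice. Ndufa7 was the only complex I gene with a negative difference, −0.30 ± 0.14 (adjusted p = 0.0791), and its libraries ran from 5.25 to 5.59 in PMN and from 4.91 to 5.31 in monocytes.

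Complex II differed least among the nuclear classes, with a median of 0.47. Of its 8 genes 5 were higher and 1 lower. Sdha, the flavoprotein that oxidises succinate, had 7.07, 7.33 and 7.05 in PMN and 7.39, 7.51 and 7.54 in monocytes. The groups did not overlap but lay close, and the difference was 0.33 ± 0.10, a 1.26-fold higher level (adjusted p = 0.0142). Sdhb, the iron-sulphur subunit, differed by 0.35 ± 0.13 (adjusted p = 0.0309) and Sdhc, a membrane anchor, by 0.66 ± 0.13 (adjusted p = 0.000871), while Sdhd, the other anchor, gave 0.29 (adjusted p = 0.0656). The call of Sdha was lost without PMN vehicle library 1 (adjusted p = 0.0530) or 3 (0.0569), and that of Sdhb without any of the vehicle libraries of either cell type except PMN vehicle library 2 (adjusted p from 0.0501 to 0.0965). Whether complex II differed from the other complexes was not tested.

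Assembly factors of complex II went in opposite directions. Sdhaf2, which attaches the flavin to Sdha and lies on chromosome 19 (chr19:10500534-10526142, minus strand, GRCm38), had 5.79, 6.44 and 5.92 in PMN and 5.03, 5.38 and 5.08 in monocytes. Every monocyte library was below every PMN library, and the difference of −0.88 ± 0.16 (adjusted p = 0.000456) made it the only gene of the 100 lower in monocytes of vehicle mice. Sdhaf3, which aids maturation of Sdhb, was higher by 1.81 ± 0.42 (adjusted p = 0.00249), from a PMN mean of −1.22 to a monocyte mean of 0.60.

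All 8 nuclear genes of complex III were higher in monocytes, with differences of 0.68 to 1.31. Uqcrfs1, the Rieske iron-sulphur protein, had 6.06, 6.33 and 6.07 in PMN and 7.44, 7.38 and 7.58 in monocytes. The groups lay more than 1 unit apart, and the difference was 1.31 ± 0.11, or 2.48-fold (adjusted p = 1.95e-06). Uqcrc1, a core protein of the complex, was higher by 1.24 ± 0.10 (adjusted p = 1.3e-06). The single mitochondrial subunit, mt-Cytb, had 11.13, 10.95 and 10.61 in PMN and 12.19, 12.12 and 12.56 in monocytes, with a difference of 1.39 ± 0.25 (adjusted p = 0.000442).

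In complex IV the nuclear genes had a larger median difference (0.93, 11 of 12 higher) than the 3 mitochondrial ones (0.58, 1 of 3 higher), the reverse of complex I. Cox4i1, the ubiquitous regulatory subunit, had 7.49, 7.57 and 7.30 in PMN and 8.48, 8.52 and 8.45 in monocytes, a difference of 1.03 ± 0.10 (adjusted p = 4.73e-06). Cox6a1 and Cox5a were higher by 0.94 and 0.92. Ndufa4, first described in complex I and now placed in complex IV, was higher by 1.43 ± 0.13 (adjusted p = 2.24e-06), with PMN libraries at 5.17 to 5.33 and monocyte libraries at 6.54 to 6.92. Cox7a2, Cox7a2l and Cox6b1 showed smaller rises of 0.83, 0.60 and 0.59. The Cox7a2l call was lost with the vehicle libraries fitted alone (limma, adjusted p = 0.0536) and with array quality weights (0.0773). Cox8a gave 0.53 (adjusted p = 0.0614) and its groups overlapped, since PMN vehicle library 2 had 8.47 against 7.32 and 7.50 in the others. Without that library the Cox8a difference was 0.88 (adjusted p = 0.000185).

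Cox6b2, known as the testis form of subunit 6b, had the largest difference of the nuclear genes. Its values were 2.84, 3.22 and 2.57 in PMN and 5.23, 4.88 and 4.45 in monocytes. The difference was 1.98 ± 0.23, a 3.94-fold higher level (adjusted p = 1.68e-05), and in GS9820 mice it was 1.42 ± 0.20 (adjusted p = 4.26e-05). The widespread form, Cox6b1, differed by 0.59 and 0.50 in the same comparisons. The Cox6b2 gene lies at chr7:4751792-4753094 on the minus strand (GRCm38), and reads it may share with overlapping genes could not be examined from these values.

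Mitochondrially encoded subunits of complex IV, the catalytic core, had the smallest differences of that genome. mt-Co3 was higher by 0.78 ± 0.25 (adjusted p = 0.017), while mt-Co2 gave 0.58 ± 0.24 (adjusted p = 0.0528) and mt-Co1 0.54 ± 0.24 (adjusted p = 0.0687). mt-Co1 had 12.83, 12.92 and 12.56 in PMN and 13.14, 13.14 and 13.68 in monocytes, so the groups did not overlap although the test was not passed. Without PMN vehicle library 3 or monocyte vehicle library 3 the mt-Co3 call was lost (adjusted p = 0.0696 and 0.0650). Without PMN vehicle library 2 or monocyte vehicle library 2 mt-Co2 passed (adjusted p = 0.0478 and 0.0352).

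ATP synthase, complex V, had the largest nuclear median, 1.12, and 16 of its 17 nuclear genes were higher. The 3 genes for the c subunit, which forms the rotating ring and whose mature protein is the same from each gene, were among the most different. Atp5g2 (chr15:102662864-102672352, minus strand, GRCm38), whose promoter is shown above, had 5.99, 6.23 and 5.48 in PMN and 7.71, 7.85 and 7.81 in monocytes. No libraries overlapped, and the difference was 1.89 ± 0.17, or 3.71-fold (adjusted p = 2.28e-06). Atp5g3 and Atp5g1 were higher by 1.66 ± 0.16 and 1.54 ± 0.14 (adjusted p = 3.43e-06 and 2.79e-06). The catalytic head followed: Atp5a1 (alpha) had 8.61, 8.71 and 8.22 in PMN and 9.94, 10.20 and 9.96 in monocytes, a difference of 1.52 ± 0.14 (adjusted p = 2.47e-06), and Atp5b (beta) differed by 1.15 ± 0.14. Atp5o, in the stalk, was higher by 1.60 and Atp5k, in the membrane part, by 1.43. Atp5s, a factor associated with the enzyme, gave −0.43 ± 0.35 (adjusted p = 0.299).

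The mitochondrial subunits of ATP synthase were higher too. mt-Atp8 had 11.65, 11.44 and 10.96 in PMN and 12.45, 12.40 and 13.02 in monocytes, a difference of 1.27 ± 0.25 (adjusted p = 0.00091). mt-Atp6 had 12.31, 12.45 and 11.85 against 12.83, 12.83 and 13.44, a difference of 0.84 ± 0.29 (adjusted p = 0.0259). That call was lost without PMN vehicle library 3 (adjusted p = 0.0963) or monocyte vehicle library 3 (0.0940). These libraries have the lowest mitochondrial mean of the vehicle PMN and the highest of the vehicle monocytes.

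Differences of the mitochondrial genes were largely ordered by their level in PMN, genes of higher level differing less. Over the 13 genes Pearson's r between the PMN mean and the difference was −0.93 (Spearman's rho −0.96) in vehicle mice and −0.97 (rho −0.97) in GS9820 mice. This is a description only, since the genes share libraries and the PMN mean enters both quantities. The scale ended at 14.05, the top value of every sorted-cell library, which mt-Co1 reached in a monocyte library (GS9820 library 4). Of the 20 highest genes per library, 1 to 4 were mitochondrial in PMN and 5 to 10 in monocytes, and the part of this upper limit in the smaller differences was not tested.

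**Figure D3:**
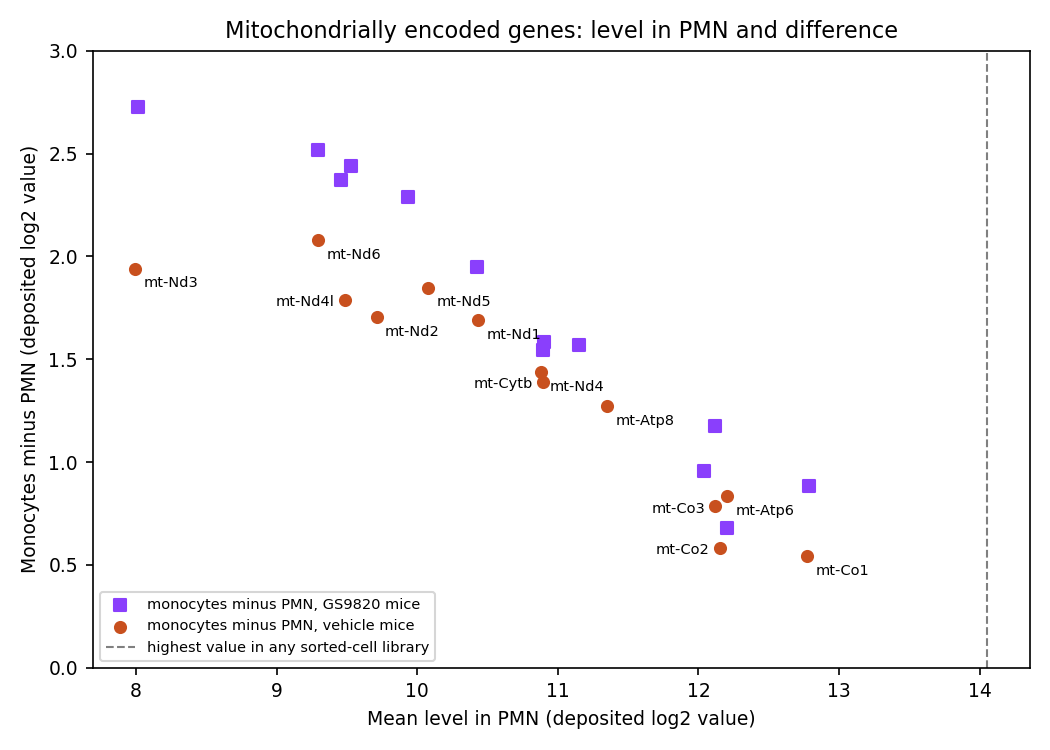
Difference between monocytes and PMN of each of the 13 mitochondrial genes against its mean level in PMN (both deposited log2 values), in vehicle mice (circles, named) and GS9820 mice (squares). The dashed line marks the highest value of any sorted-cell library. In vehicle mice the 7 complex I genes lie furthest to the left, and mt-Co1, highest in PMN at 12.77, differs least.

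Among the monocyte libraries of vehicle mice, PMN markers were lowest in the library with the highest mitochondrial mean. Their mean was 11.11, 10.82 and 8.97 in monocyte vehicle libraries 1 to 3, beside mitochondrial means of 11.96, 11.81 and 12.52. In the 4 GS9820 monocyte libraries it was 10.50, 9.42, 10.47 and 9.85, beside 12.32, 12.47, 12.28 and 12.60. Vehicle libraries 1 and 2 thus had more PMN marker signal and a lower mitochondrial mean than library 3, and GS9820 libraries 1 and 3 than libraries 2 and 4. The part of such signal in the differences was not tested. Erythroid markers (10 of 12 measured) were highest in PMN vehicle library 2 (7.35) and monocyte vehicle library 2 (6.58), and their part was not tested either.

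The same cell-type comparison was made in GS9820 mice, 4 libraries against 4, with other libraries than in vehicle mice. Both comparisons used the same estimate of the spread, from the fit of all 14 libraries, so their calls are not independent. In GS9820 mice 85 of 100 genes were higher and 2 lower in monocytes, where 37.6% and 32.1% of all genes were, 69.6% in all. Libraries did not overlap in 81 genes that were higher and 2 that were lower, against 37.4% and 32.1% of all genes. The median difference was 0.91, at 0.85 for nuclear and 1.58 for mitochondrial genes. All 13 mitochondrial genes were higher, by 0.68 to 2.73, including mt-Co2 (0.68 ± 0.21, adjusted p = 0.0112) and mt-Co1 (0.88 ± 0.21, adjusted p = 0.00229). mt-Nd3 had 8.02, 7.89, 7.40 and 8.74 in PMN and 10.46, 10.76, 10.69 and 11.05 in monocytes, the widest difference at 2.73 ± 0.31, or 6.61-fold (adjusted p = 8.15e-06). The mitochondrial mean lay 5.07 to 6.01 above the nuclear mean in these PMN libraries and 6.31 to 6.70 in these monocyte libraries, without overlap.

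By complex, the GS9820 mice gave medians of 2.37 for mitochondrial and 0.80 for nuclear complex I genes, 0.55 for complex II, 0.83 for nuclear complex III, 0.84 for nuclear complex IV and 1.06 for nuclear complex V. Higher genes numbered 30 of 42, 7 of 8, 8 of 8, 12 of 12 and 15 of 17 in these 5 nuclear classes. The 77 genes higher in both kinds of mice were 77 of the 81 in vehicle and 77 of the 85 in GS9820 mice. Atp5l, Ndufa3, Ndufb4 and Ndufs4 passed in vehicle mice only, and Cox8a, Ndufaf4, Ndufaf7, Ndufb6, Sdhaf1, Sdhd, mt-Co1 and mt-Co2 in GS9820 mice only. The test of the difference between the kinds of mice, given below, called none of them. Sdhaf2 was again lower (−0.68 ± 0.14, adjusted p = 0.000724), and Ndufa7 was now lower as well (−0.47 ± 0.12, adjusted p = 0.0039). Cox8a, at 0.55 (adjusted p = 0.0247), lost its call without PMN GS9820 library 1 (adjusted p = 0.0646) or monocyte GS9820 library 2 (0.0660).

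Other mitochondrial gene lists were read from the same vehicle comparison, in which 32.8% of all genes tested were higher and 27.2% lower. Of 17 tricarboxylic acid cycle and pyruvate dehydrogenase genes, 15 were higher in monocytes and none lower (median 0.97), with Idh2 (1.95), Idh3a (1.71) and Fh1 (1.63), enzymes of the cycle, the furthest. Among 80 genes with symbols of mitochondrial ribosomal proteins 66 were higher and 2 lower (median 0.93), and among 26 genes of protein import 22 and 1 (median 0.89). The ribosomal list includes symbols of pseudogenes, such as Mrps36-ps1 and Mrpl23-ps1. Of 18 electron carriers and entry points, 10 were higher and 2 lower, led by cytochrome c, Cycs (1.75 ± 0.16, adjusted p = 2.4e-06). Assembly factors outside the symbol rule were higher in 6 of 8 cases for complex I (Nubpl, 1.31) and in 15 of 31 cases, with 4 lower, for complexes III to V (Pet117, 1.94). Carriers, porins and uncoupling proteins were higher in 7 of 12 cases, among them the ADP/ATP carrier Slc25a4 (2.01).

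Lists closer to the expression of the mitochondrial genome held both higher and lower genes, beside 32.8% higher and 27.2% lower among all genes. Of 24 genes of mitochondrial DNA maintenance and transcription, 13 were higher and 6 lower (median 0.43), the furthest being Mterf1b (−1.51), Mterf1a (−1.27) and Fastkd1 (1.22). Mterf1a and Mterf1b are near-identical copies, and reads could be split between them. Of 10 regulators of mitochondrial gene expression, 3 were higher and 4 lower (median −0.12), with the coactivator Ppargc1b higher by 1.85 and Tfeb lower by 0.93. The share of regulators that were higher, and that of maintenance and transcription genes that were lower, lay near the shares of all genes. Glycolytic enzymes were higher in 2 and lower in 2 of 16 cases (median −0.09), and the glucose transporter Slc2a1 was lower in monocytes by 2.65 ± 0.25 (adjusted p = 3.73e-06).

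**Figure D4:**
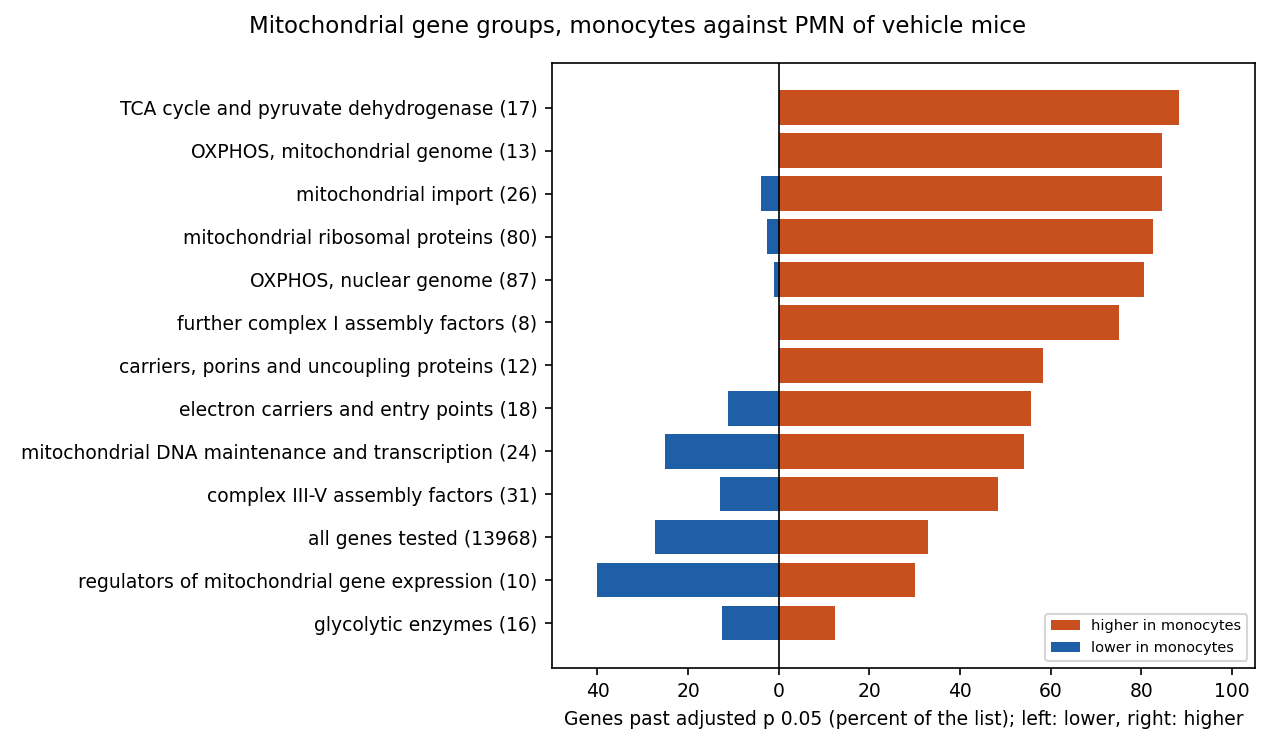
Share of each gene list (percent, number of genes in brackets) past the limma threshold in monocytes against PMN of vehicle mice, higher to the right and lower to the left of 0. Oxidative phosphorylation genes of both genomes stand with the tricarboxylic acid cycle, import and ribosomal protein lists. In the share higher, glycolytic enzymes stand below all genes tested and regulators stand near them.

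GS9820 was next compared with vehicle in each cell type. In PMN no oxidative phosphorylation gene passed (0 of 100), and neither did any of the 13968 genes (0%, with 430 at an unadjusted limma p under 0.05, none of them among these 100). The median difference was −0.01 for mitochondrial and −0.01 for nuclear genes, and single genes ranged from −0.60 (Atp5s) to 0.37 (Cox6b2). The smallest unadjusted p in limma was 0.0655, for the complex I subunit Ndufc1 (0.28 ± 0.14, adjusted p = 1). Ndufaf6 (−0.52) and Ndufa10 (−0.16) had all GS9820 libraries below all vehicle libraries, 2 of 100 against 1.99% of all genes, and none of the 100 lay wholly above, against 1.78%. The mitochondrial mean was 10.72 ± 0.35 in vehicle (SD, n = 3) and 10.67 ± 0.41 in GS9820 PMN (SD, n = 4), and the nuclear mean was 5.16 ± 0.11 in each.

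In monocytes no gene of the 100 passed either, again with 0% of all genes called (335 at an unadjusted limma p under 0.05). All 13 mitochondrial genes had a positive difference, from 0.10 (mt-Atp8 and mt-Co3) to 0.80 (mt-Nd3), with a median of 0.25 against −0.02 for the nuclear genes. mt-Nd3 had 9.59, 9.48 and 10.74 in vehicle and 10.46, 10.76, 10.69 and 11.05 in GS9820 libraries. The groups overlapped because vehicle library 3 was as high as the treated ones, and the difference was 0.80 ± 0.34 (limma, unadjusted p = 0.0343, adjusted p = 0.996). mt-Nd2, mt-Nd4l and mt-Nd6 gave 0.55, 0.54 and 0.45. None of the 100 genes had groups that did not overlap, against 1.47% of all genes above and 1.90% below. The mitochondrial mean was 12.10 ± 0.37 in vehicle (SD, n = 3) and 12.42 ± 0.15 in GS9820 libraries (SD, n = 4), a difference within the spread of the vehicle libraries.

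Whether the GS9820 difference was larger in monocytes than in PMN was tested as an interaction, which is also the test of whether the cell types differed more in GS9820 than in vehicle mice. It called 0 of the 100 genes and 0% of all genes (269 at an unadjusted limma p under 0.05, none among these 100). The median interaction was 0.30 for the mitochondrial genes (0.10 to 0.78, all 13 positive) and −0.01 for the nuclear genes. mt-Nd3 gave 0.78, mt-Nd4l 0.73 and Cox6b2 −0.55. The smallest p was that of Ndufa10, at 0.28 (limma, unadjusted p = 0.0501). Differences between mitochondrial genes are not independent of each other, since 1 library's mitochondrial signal moves all 13.

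In whole tumours GS9820 was compared with vehicle, 5 libraries against 7. No oxidative phosphorylation gene passed (0 of 100), where 2.20% of 16296 genes did, 0.878% higher and 1.33% lower. At an unadjusted limma p under 0.05 there were 7 higher and 10 lower genes of the 100, beside 1489 higher and 2493 lower of all 16296. Taken over both genomes, neither share of the 100 was above that of all genes. The genomes differed, however. The higher genes were mt-Nd1, mt-Nd2, mt-Nd3, mt-Nd4l, mt-Atp6 and mt-Atp8 with the nuclear Ndufab1, and the lower ones were all nuclear. The mitochondrial genes share each library's signal and are not independent of each other. Mitochondrial genes had a median difference of 0.68 and nuclear genes one of −0.12, beside −0.06 for all genes. No gene of the 100 had groups that did not overlap, against 0.951% of all genes above and 1.86% below. A tumour mixes carcinoma, stromal and immune cells, so these values join all of them.

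Among the mitochondrial genes of the tumours, mt-Atp8 of complex V had the widest difference. Its values were 6.68, 7.004, 6.88, 7.34, 10.01, 7.62 and 6.94 in vehicle tumours 1 to 7 and 8.02, 7.76, 9.98, 9.74 and 10.23 in GS9820 tumours 1 to 5. Vehicle tumour 5 stood with the 3 highest GS9820 tumours, and the difference was 1.65 ± 0.61 (adjusted p = 0.128). mt-Nd3 had 7.37, 7.43, 7.11, 7.21, 9.18, 8.09 and 7.72 in vehicle and 8.53, 8.36, 9.32, 9.49 and 9.54 in GS9820 tumours, and gave the smallest p of the 100 genes, at 1.31 ± 0.36 (adjusted p = 0.0639). All 5 GS9820 tumours were above 6 of the 7 vehicle tumours, and vehicle tumour 5 was again the exception. mt-Atp6 (1.29), mt-Nd2 (1.10), mt-Nd1 (0.91), mt-Cytb (0.91) and mt-Nd4l (0.68) had positive values without passing. mt-Nd5 (−0.30) and mt-Nd6 (−0.33), neighbours on opposite strands, had negative values.

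Nuclear genes of the tumours had class medians near 0. These were −0.17 for complex I, −0.07 for complex II, 0.10 for complex III, −0.03 for complex IV and −0.13 for complex V. Ndufa4l2, a relative of Ndufa4 known as a hypoxia-induced gene (chr10:127514967-127517154, plus strand, GRCm38), had 2.66, 3.54, 2.30, 3.55, 2.57, 3.12 and 4.07 in vehicle and 1.24, 1.48, 3.03, 1.17 and 2.31 in GS9820 tumours. The difference was −1.27 ± 0.40 (adjusted p = 0.0904), and GS9820 tumours 3 and 5 lay within the vehicle range. Ndufaf2, a complex I assembly factor, gave −1.24 ± 0.39 (adjusted p = 0.0898) and Ndufaf1 −0.45 ± 0.16 (adjusted p = 0.12). Some core subunits stood near 0, with Ndufs1 at 0.01, Uqcrfs1 at −0.01, Cox5a at −0.03, Sdhb at 0.05 and Atp5b at −0.11. Others did not, with Ndufv1 at −0.29, Atp5a1 at −0.27, Sdha at 0.19 and Uqcrc1 at 0.44, while Cox4i1 gave −0.53. Most of these values rest partly on GS9820 tumour 1, which stood above the other GS9820 tumours. It had 8.68 for Uqcrfs1 against 6.62 to 6.88, and 7.98 for Cox5a against 6.03 to 6.18.

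These tumour counts moved with single libraries and with weighting. Without vehicle tumour 5, 9 of the 100 genes passed. Of these mt-Nd1, mt-Nd2, mt-Nd3, mt-Nd4l, mt-Cytb, mt-Atp6 and mt-Atp8 were higher (mt-Atp8 by 2.07, adjusted p = 0.0197) and Ndufa2 and Ndufaf2 lower. In that run 1690 of all genes were called, so the share of the 100 was not above that of all genes. Array quality weights, which count variable libraries less, gave 22 genes, 6 mitochondrial ones higher (mt-Nd3 by 1.56, adjusted p = 0.00709) and 16 nuclear ones lower. With these weights 2764 of all 16296 genes were called. Without GS9820 tumour 1 Ndufb7 (−0.71) and Atp5j2 (−0.55) were lower, and without GS9820 tumour 3 Ndufa4l2 was (−1.56, adjusted p = 0.0490). The share of all genes called without either of these tumours is not given here, so these calls cannot be set beside it.

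Mitochondrial levels of the tumours also differed with the number in the sample name. What this number stands for is not given by the labels. It ran from 1 to 28, and the 4 tumours of 19 or above were GS9820 tumours 3, 4 and 5 and vehicle tumour 5, so that the number and the treatment are partly confounded. This split was chosen after seeing the values. In these 4, mt-Atp8 ran from 9.74 to 10.23 and in the 8 of 15 or below from 6.68 to 8.02. Likewise mt-Cytb ran from 9.46 to 10.70 against 7.85 to 9.34. The sets did not overlap in 8 of 13 mitochondrial genes, all higher in the 4, where 1.05% of all genes were higher without overlap. As the split followed a look at the values and the 13 genes share each library's signal, this count only describes the split and cannot test it. Of the 87 nuclear genes 0 were higher and 5 (5.75%) lower, beside 1.57% of all genes.

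Within the 8 tumours of lower number (2 GS9820 and 6 vehicle) the median GS9820 difference of the mitochondrial genes was 0.76. Within the 4 of higher number it was −0.32, with 1 vehicle tumour only. The nuclear medians were 0.03 and −0.21. With the number as a covariate the mitochondrial median was 0.30, the nuclear one 0.03, and 0 genes passed.

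**Figure D5:**
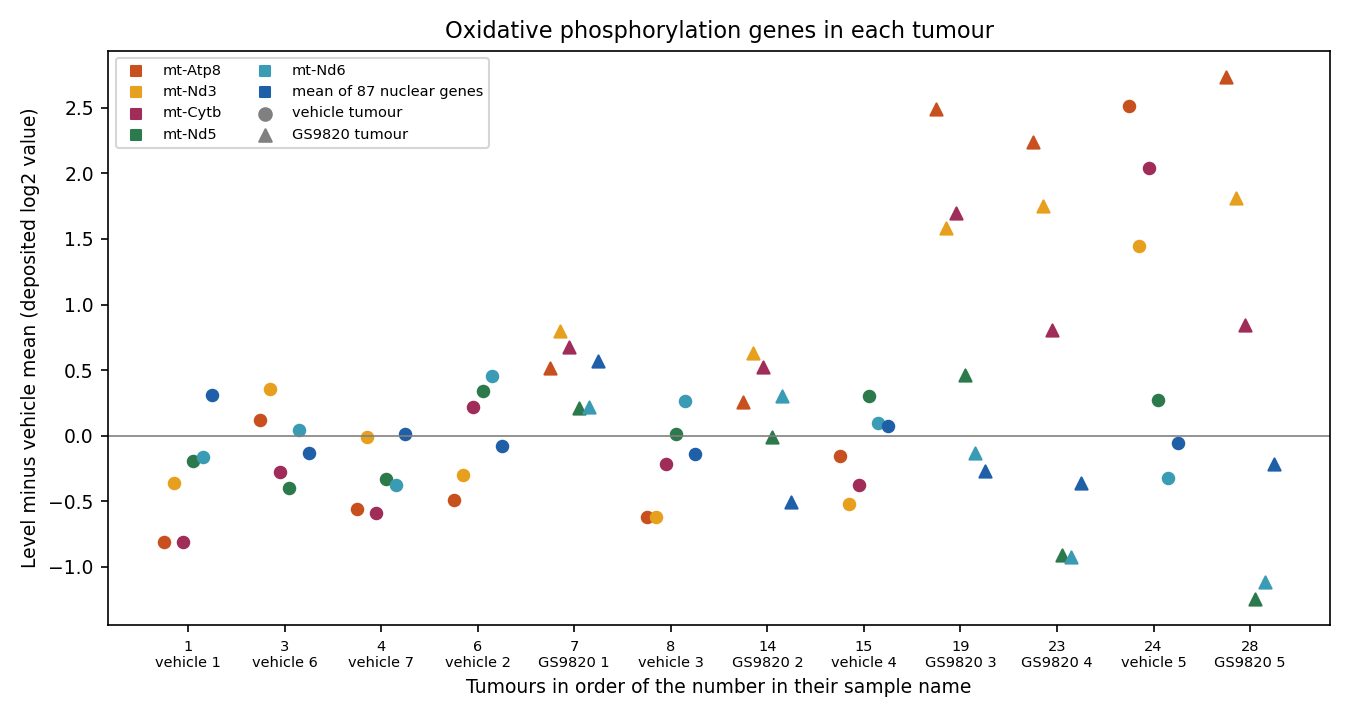
Level of 5 mitochondrial genes and mean of the 87 nuclear genes in each tumour, minus the mean of the vehicle tumours (deposited log2 value), with tumours in order of the number in their sample name. Circles are vehicle and triangles GS9820 tumours. mt-Atp8 and mt-Nd3 stand highest in the tumours numbered 19, 23, 24 and 28, one of them vehicle tumour 5, while mt-Nd5 and mt-Nd6 are lowest in 23 and 28.

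Tumours also differed in other tissues' markers and in a single library's nuclear genes. GS9820 tumour 1 had the highest nuclear mean, 6.37 against 5.30 to 6.11 in the other 11 tumours, with the highest adipocyte marker mean (6.58, 8 of 9 markers measured). Hepatocyte markers (7 of 10 measured) averaged 11.13 in GS9820 tumour 3, 6.17 in GS9820 tumour 1 and 5.11 in vehicle tumour 4, and 0.36 to 2.59 elsewhere. PMN markers were highest in vehicle tumour 5 (7.23). Markers of pancreatic islets (12 of 12 measured) averaged −0.51 to 6.18 in vehicle tumours (median 0.93) and 4.79 to 8.08 in GS9820 tumours (median 6.37). Markers of acinar cells (15 of 15 measured) averaged 2.56 to 9.77 (median 6.01) and 5.63 to 10.07 (median 8.67). Both lists overlapped between the groups with higher medians in GS9820 tumours, as did the adipocyte list (medians 0.59 and 5.01). In vehicle tumour 5, high in mitochondrial genes, the islet mean was 2.35 and the acinar mean 7.40. The part of these cells in the values above was not tested.

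Related lists in the tumours were mostly without calls, where 0.878% of all genes were higher and 1.33% lower. Glycolytic enzymes were lower in 6 of 16 cases (median −1.21), with Pkm (−1.75 ± 0.38, adjusted p = 0.0374), Pgam1 (−1.54) and Slc2a1 (−1.34). Of 80 genes with symbols of mitochondrial ribosomal proteins 1 was lower (Mrps12, −1.28, adjusted p = 0.0317), which is near the share of all genes. The other 8 lists had 0 genes past the threshold. Import genes had a median of −0.48, and the tricarboxylic acid cycle genes one of −0.04.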

How the data were processed

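The authors deposited log2 expression values (named log2 RPKM) separately for each library. These were joined here into 1 set for tumours and 1 for sorted cells. Per the submitters' processing notes TopHat2, STAR, limma and mm10 were used, with versions and roles not given in the sources used here. Tumour RNA, preserved in RNAlater per the labels, was depleted of ribosomal RNA, made into stranded libraries and sequenced in 1 lane as 100 bp paired ends. Sorted-cell libraries used either of 2 kits (TruSeq or Nugen, which per library is not given) in 4 lanes, so the part of the kit in any difference was not tested. No counts or depths could be recovered, and the values differ from RPKM in scale.

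Identifiers were matched to GENCODE M21 (GRCm38) for 16039 and 13886 genes. A gene was kept where 5 or more tumours, or 3 or more sorted-cell libraries, reached a value of 0, which left 16296 and 13968 genes. Two-sided moderated tests came from limma 3.58.1 under R 4.3.3 (lmFit, then eBayes using the trend of variance on level) in 2 fits, the 12 tumours and the 14 sorted-cell libraries in 4 groups. P-values of the 6 comparisons were each adjusted by Benjamini-Hochberg over all kept genes and called at 0.05. The pipeline was tested on simulated data. Class means are unweighted means over genes. Alternatives were filters (none, a value of 2), log2 of the value plus 1, quantile normalization, median centring, array quality weights, eBayes in robust form or without the trend, a replicate block, 1 library left out at a time, subsets of the fit and, added later, the number in the tumour names. Plots used Python 3.11.15 and matplotlib 3.10.9.

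The members and lists were chosen with earlier results of these data known. Genes named are the 13 mitochondrial ones, up to 12 nuclear genes of largest rise or fall past the threshold, the 6 of smallest p where fewer than 6 passed, isoform sets, a core subunit or pair per complex, and up to 3 genes per related list. Others (such as Ndufb10, Sdhc, Sdhd, Ndufa7, the genes past the threshold in 1 kind of mice or in neither and those of alternatives) were named after their values were seen.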

Additional observations from a re-analysis of the deposited data

Results flagged for a closer look

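In 160 levels checked over groups of 4 to 7 libraries, 35 had a library far from the others of its group by Dixon's test at the 95% level. Chance gives about 1 in 20 groups, and genes of a library are not independent of each other.

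Vehicle tumour 5 stood above the other vehicle tumours in mitochondrial genes. Its mitochondrial mean was 9.92, where the other 6 ran from 8.09 to 8.72. It had 13.3 for mt-Co1, 11.01 for mt-Atp6, 10.7 for mt-Cytb, 10.01 for mt-Atp8, 9.74 for mt-Nd4, 7.85 for mt-Nd2 and 6.73 for mt-Nd4l.

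GS9820 tumour 1 stood above the other GS9820 tumours in nuclear genes. Its nuclear mean was 6.37, with 5.74 for complex I, 5.65 for complex II and 7.66 for complex III. Single genes were Ndufs1 (7.16), Ndufv1 (7.86), Sdha (8.69), Sdhb (7.54), Uqcrc1 (9.15), Uqcrfs1 (8.68), Cox4i1 (9.47), Cox5a (7.98), Cox6a1 (8.71), Atp5a1 (11.1) and Atp5g3 (8.97). Uqcrc1 of the other 4 GS9820 tumours ran from 7.04 to 7.23.

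Other tumours stood apart in fewer values. Vehicle tumour 1 was high in the nuclear complex I mean (5.67), Sdhb (6.84) and Cox7a2 (7.45), and vehicle tumour 3 was low in Ndufa4 (5.34). GS9820 tumour 3 was high in mt-Nd4l (6.76) and mt-Cytb (10.35), and GS9820 tumour 2 was low in mt-Co3 (11.02) and Cox8a (6.33).

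In sorted cells 4 values stood apart, all in GS9820 groups. PMN library 2 was high in the nuclear complex I mean (4.56) and Cox5a (6.32), PMN library 3 was low in mt-Atp8 (10.57), and monocyte library 4 was high in mt-Nd4l (12.02). Groups of 3 libraries were not checked.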

How the results depend on the processing

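No called value changed direction under any alternative run. Monocytes against PMN gave 74 to 86 calls in vehicle and 84 to 90 in GS9820 mice with 1 library left out, with medians of 0.84 to 0.97 and 0.75 to 0.956 for nuclear and 1.26 to 1.57 and 1.42 to 1.76 for mitochondrial genes. The nuclear median in GS9820 mice was 0.956 without PMN library 2, and in vehicle mice it was 1.01 with array quality weights. GS9820 against vehicle in PMN and in monocytes, and the interaction, gave 0 calls among the 100 genes with any 1 library left out. In tumours the count was 22 with array quality weights and 0 to 9 with 1 library left out, the mitochondrial median was −0.32 in the 4 tumours of higher name number alone and 0.50 to 0.91 with 1 library left out, and the nuclear median −0.31 to −0.00147. Replicate numbers were shared between groups, but deviations of same-numbered libraries did not go together in every pair (correlations of −0.44 to 0.46 over all comparisons). With the replicate block 83 and 87 genes passed between the cell types in vehicle and GS9820 mice, and 0 in the other comparisons. Between the cell types the main fit called 60.1% of all genes in vehicle and 69.6% in GS9820 mice. The shares of all genes in the alternative runs of these 2 comparisons are not given here, so their counts cannot be read alone. In vehicle mice every monocyte library was closest to the PMN library of its own number, with correlations of 0.46, 0.28 and 0.09 for numbers 1 to 3. In GS9820 mice this held for numbers 3 and 4 (0.27 and 0.45) but not for 1 and 2 (−0.13 and −0.22). Over named genes in the vehicle comparison of cell types, 608 values stayed as in the main fit, called or not called. Another 20 lost their call and 9 gained one, the lost calls being in mt-Atp6, mt-Co3, Sdha, Sdhb and Cox7a2l. Causes of these changes were not tested. Depth is unknown, so no limit of detection can be given.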
